A study of Rattus norvegicus with 2 samples.

Results

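Genes of DNA replication and mitosis were followed on 2 arrays, 1 of control and 1 of sorted YB2/0 cells. YB2/0 is a rat myeloma cell line that grows in suspension. The members were 56 genes chosen by name, and every probe set whose gene symbol in the array's annotation was one of them was taken, which gave 130 of the 54613 probe sets without the Affymetrix controls. All 56 genes had at least 1 probe set, of 21357 gene symbols in the annotation, and each of the 130 probe sets named 1 gene only.

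The control sample was cultured without treatment, and the study describes it as not transfected. The sorted sample came from YB2/0 cells that had been given a cDNA library of human umbilical vein endothelial cells by retrovirus. Those cells were then sorted over several rounds for binding of IgG from patients with Takayasu arteritis. Whether it was a sorted pool or a clone is not settled, since labels and text use different words, and no serum is named for it. Control and sorted cells therefore differ in the library, the sorting, the added time in culture and any cloning at once. Their labels also carry separate sample codes, whose meaning is not given, so that a separate array run is possible, and all these cannot be told apart. PROCR, an endothelial receptor for protein C, was Absent at 186 on the control array and Present at 528933 on the sorted one. Markers of cell types were read as a description. SDC1 of plasma cells was Present on both arrays at 201287_s_at and Absent on both at 201286_at. Among 12 plasma and B cell markers only SDC1, PRDM1 and CD27 had a Present call. Of their 23 probe sets as a list, 4 were Present on at least 1 array, or 17.4%, against 12.5% of all probe sets. Of these CD27 was lower by the rule given next, with 1353 in control cells and 253 in sorted cells, where it was Absent, and 0 were higher. Of 20 probe sets for 8 endothelial markers 1 was Present, for FLT1 in sorted cells, and it was higher by the same rule. Of 9 for 5 markers of embryonic kidney cells 4 were Present, with 2 higher and 2 lower in sorted cells. NEFL was higher, KRT8 was lower, and VIM was lower at 201426_s_at and higher at 1555938_x_at. The shares over all probe sets were 1.61% higher and 1.77% lower. The part of these cell types in the values below was not tested.

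The array carries probes named by human genes, so it reads rat transcripts only as far as they hybridise to human sequence. Each probe set has a MAS5 signal, an intensity on a linear scale, and a call that says whether it was detected (Present), borderline (Marginal) or not detected (Absent). The arrays are compared within 1 probe set at a time, by the log2 of the sorted signal divided by the control signal. By the 2-fold rule used here, a higher probe set had to be Present in sorted cells and a lower one Present in control cells. Where only 1 array detected it and the other was Absent, the fold is given as a nominal lower limit, written as at least. For that limit a dim signal below the weakest Present signal of its array was raised to the latter. An Absent signal above that was used as it stood, so the limit is only as sure as that undetected signal. With 1 array per condition there was neither a replicate error nor a test.

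A dividing cell first commits to S phase through D and E cyclins and their kinases. Origins of replication are licensed in G1, when ORC, CDC6 and CDT1 load the MCM helicase. At the fork, polymerases, the PCNA clamp and its RFC loader copy the DNA, while ribonucleotide reductase and thymidylate synthase supply the nucleotides. Mitosis is then driven by CDK1 with A and B cyclins, ordered by Aurora and Polo kinases and held by the spindle checkpoint until the chromosomes are attached. Condensin and cohesin are built on SMC proteins. Myeloma lines divide continuously in culture and are known to transcribe these genes.

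Genes of the early phases are classically driven by E2F factors, and those of G2 and mitosis through a cell cycle homology region (CHR) beside CCAAT boxes. The rat promoters of the members were searched for these motifs, and 4 of the genes counted below are printed as examples of the matches. The examples do not show how often counted genes hold a match. POLD1, also counted below, held neither an E2F nor a CHR match. RefSeq promoters of assembly GRCr8, from 250 bases before to 50 after each gene's start, were matched by symbol for 45 of the 56 members. No entry was matched for CCND2, CDK6, CCNE2, CDC6, ORC1, MCM4, RRM2, CCNA2, AURKB, FOXM1 and RAD21. The search covered both strands, with TTTCCCGC, TTTCGCGC, TTTGCCGC or TTTGGCGC for E2F, TTTGAA or TTCGAA for the CHR, and CCAAT. An E2F match was held by 6 of 11 G1/S and licensing genes, by 5 of 13 fork and nucleotide genes and by 1 of 21 G2/M and spindle genes, against 2.14% of all 33469 promoters of the table. A CHR match was held by 2 of 11, 2 of 13 and 15 of 21 genes in the same order, against 19.7% of all promoters. CCAAT was held by 6 of 11, 8 of 13 and 16 of 21, against 37.5%. No difference between the phases was tested. A match describes letters only and is not a site of binding.

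The 120 bases before the start follow 5′ to 3′ on the gene's strand, with matches in capitals. Tyms (chr9:120776084-120776203, minus strand) has an E2F match whose first base lies at -37 from the start. Rrm1 (chr1:166235784-166235903, plus strand), a fork and nucleotide gene, has a CHR match at -31 and no E2F match. Mki67 (chr1:199952594-199952713, minus strand) has CHR matches at -117 and -99 and a CCAAT match, read on the other strand, at -94. The last of these shares 1 base with the CHR match before it. Smc2 (chr5:71602285-71602404, plus strand) has a CHR match, read on the other strand, at -103. Over all bases searched, CCAAT matches were 1 for Rrm1, 1 for Smc2 and 4 for Mki67, and those not in capitals lie outside the printed stretch.
Tyms: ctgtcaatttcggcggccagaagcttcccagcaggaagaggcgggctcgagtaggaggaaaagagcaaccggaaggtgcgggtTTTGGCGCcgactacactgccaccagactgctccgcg
Rrm1: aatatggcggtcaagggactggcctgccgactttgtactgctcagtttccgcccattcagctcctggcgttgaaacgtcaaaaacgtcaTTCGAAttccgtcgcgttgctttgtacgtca
Mki67: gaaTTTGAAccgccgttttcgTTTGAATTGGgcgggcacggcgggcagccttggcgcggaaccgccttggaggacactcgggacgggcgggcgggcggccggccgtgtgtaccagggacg
Smc2: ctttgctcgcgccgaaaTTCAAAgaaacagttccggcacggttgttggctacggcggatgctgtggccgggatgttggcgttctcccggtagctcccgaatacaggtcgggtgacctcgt

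Of the 130 probe sets, 22 were Present in control cells and 18 in sorted cells. These are 16.9% and 13.8%, against 8.93% and 8.24% of all probe sets. In all, 28 probe sets of 23 genes were Present on at least 1 array, 12 of them on both, and 33 genes had no Present probe set. By the 2-fold rule 9 member probe sets were lower in sorted cells, which is 6.92% of the 130, where the share was 1.77% over all probe sets. Another 3 were higher, or 2.31%, where the share over all was 1.61%. Only a probe set Present in control cells can be counted lower, and only one Present in sorted cells higher. Members were Present more often, which by itself raises both shares. Among those that could be counted, 9 of 22 were lower, against 965 of 4875 over all probe sets. For higher ones it was 3 of 18, against 879 of 4502. The 9 lower ones belong to CDK6, CCNE2, CDC6, POLD1, TYMS, RRM1, CCNB2, NEK6 and RAD21, and the 3 higher ones to MKI67, NEK6 and SMC2. Of the lower ones 8 were Absent in sorted cells, and all 3 higher ones were Absent in control cells. A probe set detected on 1 array only is chosen in part by the signal that is then compared. The members were also chosen with earlier results of these data known, so these counts are a description.

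Among the 12 member probe sets Present on both arrays, 1 was lower by the 2-fold rule and 0 were higher. The shares among the 2556 probe sets Present on both arrays were 4.15% lower and 6.34% higher. Of the 12, 8 had a log2 ratio under 0 (66.7%), against 42.5% of the 2556. Their median log2 ratio was -0.50, against 0.11. Over all 130 probe sets, detected or not, the median was -0.08, against -0.03 over all probe sets of the arrays. The lower position of the detected members was not seen in that median. Of the 130 probe sets, 98 were Absent on both arrays. It thus rests mainly on undetected signals and cannot decide the point.

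**Figure D1:**
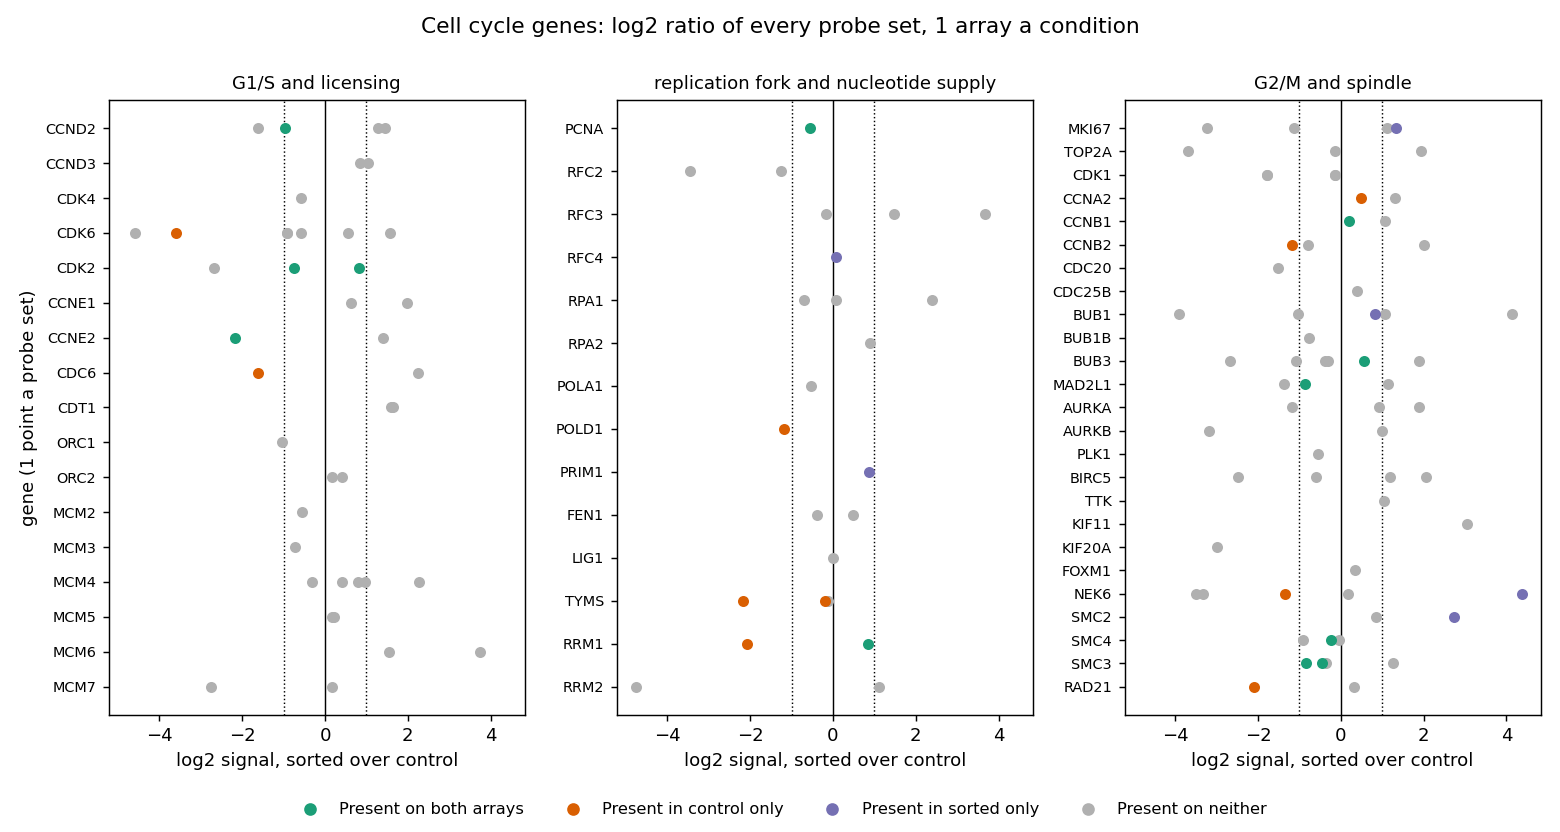
Log2 of sorted over control signal (horizontal axis) for each of the 130 probe sets, 1 point each, by gene (vertical axis) in 3 panels for the phases. Colours give the detection call, grey points are Present on neither array, and dotted lines mark a 2-fold difference. CCNE2, at -2.17, is the one probe set Present on both arrays beyond the dotted lines.

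The strength of detection sets a limit on these counts. Present calls in these files reach a detection p-value of 0.0490. Of the 40 Present calls of members over both arrays, 12 had a detection p-value under 0.01, which is 30.0%, against 31.9% of all Present calls. None of the 12 counted probe sets was among them, and their detection p-values on the brighter array ran from 0.0142 to 0.0461. With that stricter limit required, 0 member probe sets were counted in either direction. The shares over all probe sets were then 0.397% lower and 0.361% higher, so that fewer than 1 of 130 would be counted at the same share.

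In the genes of G1/S and licensing, 3 of 41 probe sets were lower by the 2-fold rule and 0 were higher. CCNE2 encodes cyclin E2, which activates CDK2 at the entry to S phase. Its probe set 211814_s_at was Present on both arrays, at 1438 in control and 320 in sorted cells, a log2 ratio of -2.17. Its other probe set, 205034_at, was Absent on both arrays at 70.1 and 186. The result for cyclin E2 thus rests on 1 probe set.

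CDC6, which loads the MCM helicase together with CDT1, had 833 in control and, Absent, 270 in sorted cells at 203968_s_at, so it was at least 3.08-fold lower. At 203967_at it was Absent on both arrays with 121 and 570. CDK6 encodes a kinase partner of D cyclins and has 7 probe sets. Of these 243000_at was Present in control cells at 1065 and Absent in sorted cells at 88.4, at least 6.69-fold lower, and the other 6 were Absent on both arrays. Neither gene had a second detected probe set that could be set beside the first.

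CCND2 encodes cyclin D2, a D cyclin of the B cell lineage, and 3 of its 4 probe sets were Absent on both arrays. The other, 200951_s_at, had 24447 in control cells and 12428 in sorted cells, Present on both, a log2 ratio of -0.98. That was just short of a 2-fold difference, which it passed once the arrays were centred (-1.09) or quantile normalized (-1.07). CDK2, the kinase of cyclins E and A, was Present on both arrays at 2 probe sets with ratios of opposite sign. At 211804_s_at control cells had 3354 and sorted cells 2011, a log2 ratio of -0.74. At 204252_at it was 748 and 1313, a log2 ratio of 0.81. The last probe set, 211803_at, was Absent on both with 556 and 87.1, and no direction for CDK2 follows.

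The remaining 12 genes of this phase had no Present probe set. These were CCND3, CDK4, CCNE1, CDT1, ORC1, ORC2 and all 6 subunits of the MCM2 to MCM7 helicase. The 13 probe sets of the helicase had signals between 23.3 and 6558, and 12 of them were Absent on both arrays. The exception was 201755_at of MCM5, Marginal in control cells at 926 and Absent in sorted cells at 1084. MCM subunits are abundant in dividing cells, and an Absent call here does not show that the rat transcript was missing.

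**Figure D2:**
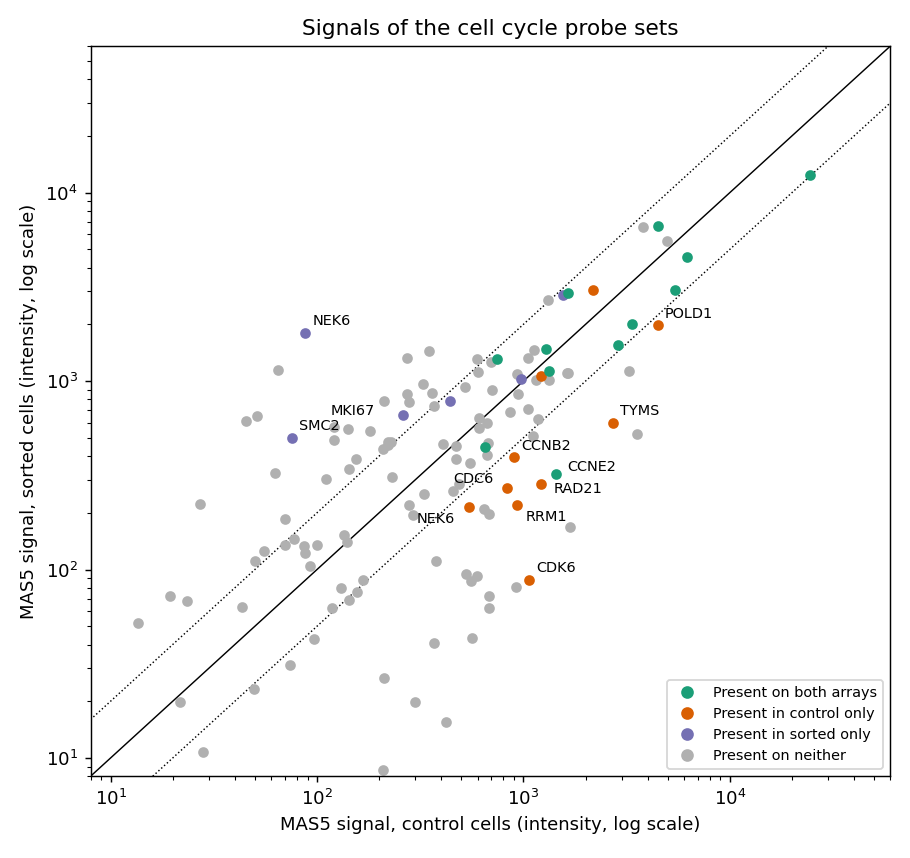
Each of the 130 probe sets by its MAS5 signal, an intensity, with the control array on the horizontal and the sorted array on the vertical axis, both log scales. The solid line marks equal signals, dotted lines a 2-fold difference, and names mark the 12 probe sets counted by the 2-fold rule. Green points, Present on both arrays, lie within the dotted lines apart from CCNE2 at 1438 and 320.

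Among the genes of the replication fork and nucleotide supply, 3 of 24 probe sets were lower by the 2-fold rule and 0 were higher. TYMS, thymidylate synthase, makes the thymidine nucleotide for DNA. Its probe set 202589_at had 2721 in control cells and 603 in sorted cells, where it was Absent, at least 4.52-fold lower. A further probe set, 1554696_s_at, was also Present in control cells only, but its signals were close, 1219 and 1064, at least 1.15-fold lower. The last, 217684_at, was Absent on both arrays with 612 and 566. The probe sets detected in control cells thus differed in the size of the contrast.

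RRM1 encodes the large subunit of ribonucleotide reductase, and its detected probe sets disagreed. At 201477_s_at control cells had 927 and sorted cells 219, where it was Absent, at least 4.23-fold lower. At 201476_s_at it was 1640 and 2929, Present on both arrays, a log2 ratio of 0.84. RRM2, the small subunit, was Absent on both arrays at both of its probe sets. POLD1, the catalytic subunit of polymerase delta, has 1 probe set, with 4473 in control cells and 1973 in sorted cells. The call in sorted cells was Absent at a detection p-value of 0.0806, and POLD1 was at least 2.27-fold lower.

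PCNA, the sliding clamp, also has 1 probe set, which was Present on both arrays at 652 and 448, a log2 ratio of -0.54. PRIM1, the primase that starts each strand, was Marginal in control cells at 1550 and Present in sorted cells at 2846, a log2 ratio of 0.88. RFC4, a subunit of the clamp loader, was Marginal at 972 and Present at 1026, a log2 ratio of 0.08. These 3 fork genes differed by less than 2-fold and did not share a direction. RFC2, RFC3, RPA1, RPA2, POLA1, FEN1, LIG1 and RRM2 had no Present probe set, and the 16 probe sets of this phase that were Absent on both arrays had signals between 15.5 and 1327.

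In the genes of G2/M and the spindle, 3 of 65 probe sets were lower by the 2-fold rule and 3 were higher. CCNB2, cyclin B2, had 897 in control and 395 in sorted cells at 202705_at, where the latter was Absent at a detection p-value of 0.0806, at least 2.27-fold lower. CCNB1, cyclin B1, was Present on both arrays at 214710_s_at with 1280 and 1477, a log2 ratio of 0.21. CCNA2, cyclin A2, had 2171 in control cells, Present, and 3049 in sorted cells, Marginal, a log2 ratio of 0.49. The 3 mitotic cyclins thus had their detected probe sets on both sides of 0, and their 4 other probe sets were Absent on both arrays.

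MKI67 encodes the proliferation antigen Ki-67, which coats mitotic chromosomes. Its probe set 212023_s_at had 261 in control cells, Absent, and 658 in sorted cells, Present, at least 2.53-fold higher. The other 3 probe sets of the gene were Absent on both arrays, with signals between 72.1 and 1301. TOP2A, the topoisomerase used beside Ki-67 as a marker of dividing cells, was Absent on both arrays at all of its 3 probe sets.

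NEK6 encodes a mitotic NIMA-related kinase and was the one member counted in both directions. At 223158_s_at the signal was 87.5 in control cells, Absent, and 1806 in sorted cells, Present, at least 12.2-fold higher. At 223159_s_at it was 548, Present, and 214, Absent, at least 2.56-fold lower. Of its other 3 probe sets, 239267_at was Marginal in control cells at 1686 and Absent in sorted cells at 167. The remaining ones were Absent on both arrays, with 410 and 461 at 223561_at and with 917 and 80.5 at 237406_at. Over all genes read by probe sets of a single symbol, 24 had 1 probe set counted higher and another lower.

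The spindle checkpoint genes showed no probe set past the 2-fold rule. BUB3 was Present on both arrays at 201457_x_at with 4479 and 6633, a log2 ratio of 0.57, and its other 5 probe sets were Absent on both. MAD2L1, the checkpoint protein MAD2, was Present on both at 1554768_a_at with 2860 and 1561, a log2 ratio of -0.87, and its other 2 were Absent on both. BUB1, a checkpoint kinase, was Absent in control cells at 440 and Present in sorted cells at 784 for 216277_at, at least 1.78-fold higher, and its other 4 probe sets were Absent on both. BUB1B was Absent on both arrays at its 1 probe set.

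Among the genes of condensin and cohesin, 5 of 11 probe sets were detected on 1 or both arrays. SMC3, a cohesin core subunit, was Present on both arrays at 2 probe sets, with 5426 and 3046 at 209258_s_at and with 6224 and 4558 at 209257_s_at. Their log2 ratios, -0.83 and -0.45, share a sign, and its other 2 probe sets were Absent on both. RAD21, which closes the cohesin ring, had 1211 in control cells, Present, and 285 in sorted cells, Absent, at 200608_s_at, at least 4.25-fold lower. At 200607_s_at it was Absent on both with 1058 and 1320. SMC4, a condensin subunit, was Present on both at 201663_s_at with 1325 and 1129, a log2 ratio of -0.23. Of its other probe sets 201664_at was Marginal at 471 and Absent at 454, and 215623_x_at was Absent on both. SMC2, its partner, had 75.3 in control cells, Absent, and 501 in sorted cells, Present, at 213253_at, at least 3.38-fold higher. Its other probe set, 204240_s_at, was Absent on both with 519 and 930.

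The mitotic kinases CDK1, PLK1, AURKA, AURKB and TTK had no Present call at any of their 11 probe sets. One of CDK1, 203214_x_at, was Marginal on both arrays with 945 and 854. CDC20, CDC25B, BUB1B, BIRC5, KIF11, KIF20A, FOXM1 and TOP2A likewise had none. The 48 probe sets of this phase that were Absent on both arrays had signals between 10.8 and 3249.

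Signals that were not detected varied widely between the arrays. Of the 98 member probe sets Absent on both arrays, 56 (57.1%) differed by 2-fold or more, against 51.6% of the 46718 such probe sets of the arrays. Their log2 ratios ran from -4.77 to 4.14. The hybridisation spikes, added to each sample in fixed amounts and read by 18 probe sets, lay between -0.58 and 0.57. The ratios of undetected signals are given as a spread only, and no fold is read from them for a gene.

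**Figure D3:**
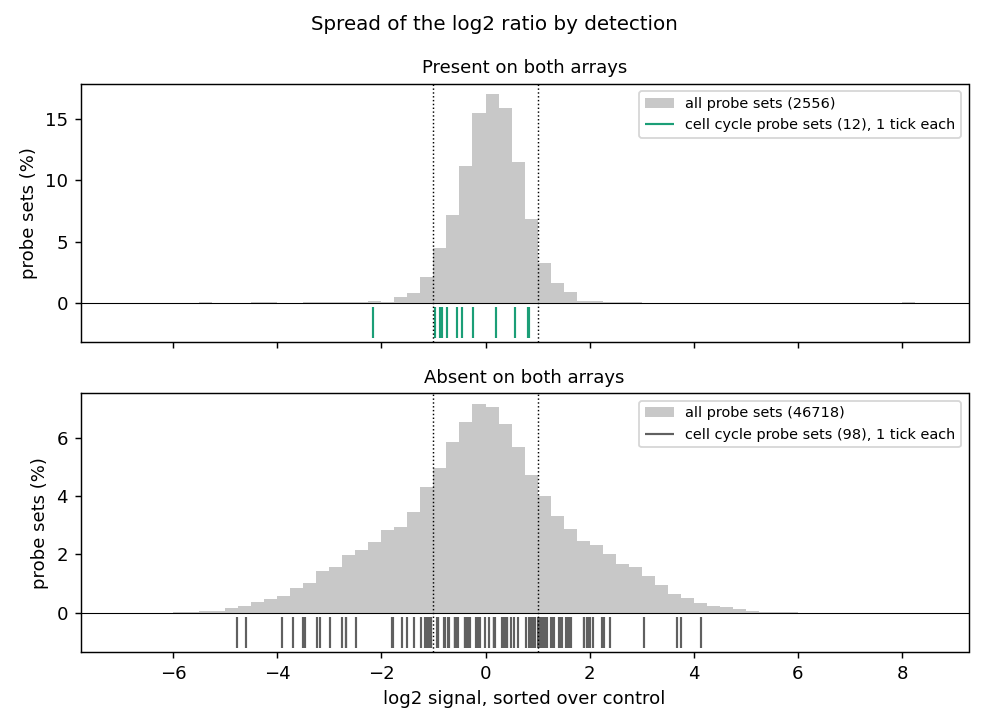
Share of probe sets (vertical axis, percent) by log2 ratio of sorted over control signal (horizontal axis), for those Present on both arrays (upper panel, 2556) and Absent on both (lower panel, 46718). Ticks under each panel are the 12 and 98 cell cycle probe sets, and dotted lines mark a 2-fold difference. Ticks in the lower panel reach from -4.77 to 4.14, while 11 of the 12 in the upper panel lie within 2-fold.

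Probe sets of 1 gene gave a second measure of reliability, which detection limited. Of the 11 members with a counted probe set, 10 had at least 1 other probe set, and in 0 did a second one pass the rule in the same direction. POLD1 was the exception with a single probe set. In CDK6, CCNE2, CDC6, CCNB2, RAD21, MKI67 and SMC2 every other probe set was Absent on both arrays and could not pass. Of all members, 5 had 2 or more probe sets Present on at least 1 array. Only CDK2 and SMC3 had 2 probe sets Present on both arrays, which differed by 1.55 for CDK2 and by 0.38 for SMC3 on the log2 scale. Over the 243 genes with at least 2 such probe sets, the median range within a gene was 0.56, and in 112 (46.1%) the log2 ratios had opposite signs. Of the 12 counted probe sets 7 end in _s_at, a suffix for probe sets that can bind transcripts of several genes or variants.

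Further cell cycle genes were read beside the members, in 3 lists for the same phases. They comprised 81 genes, of which 79 were annotated, with 149 probe sets. Of these 21, for 17 genes, had a Present call, 11 of them on both arrays. By the 2-fold rule 0 of the 149 were lower and 1 was higher, or 0.671%, for STAG2, a cohesin subunit. That probe set, 209023_s_at, was Marginal at 494 in control cells and Present at 1490 in sorted cells, a log2 ratio of 1.59, while 209022_at of the same gene had 37913 and 45749, Present on both, a log2 ratio of 0.27. The 11 Present on both arrays had a median log2 ratio of 0.00, between -0.78 for KIF2C, a kinesin that removes tubulin from microtubule ends, and 0.55 for GINS4, a subunit of the replicative helicase. ORC5 of the origin recognition complex (0.29 and -0.45), the RB family member RBL1 (0.15), the clamp loader subunit RFC1 (-0.51), RNASEH2A of ribonuclease H2 (-0.08), the dUTPase DUT (0.37), securin, encoded by PTTG1 (-0.35), and CKS2, a subunit of cyclin-dependent kinases (0.00), lay within 2-fold. The share of lower probe sets seen in the members was thus not seen in these lists. Of the 149, 18 were Present in control cells and could be counted lower. Members and lists were both chosen with earlier results of these data known. Whether the share differs between members and lists was not tested.

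**Figure D4:**
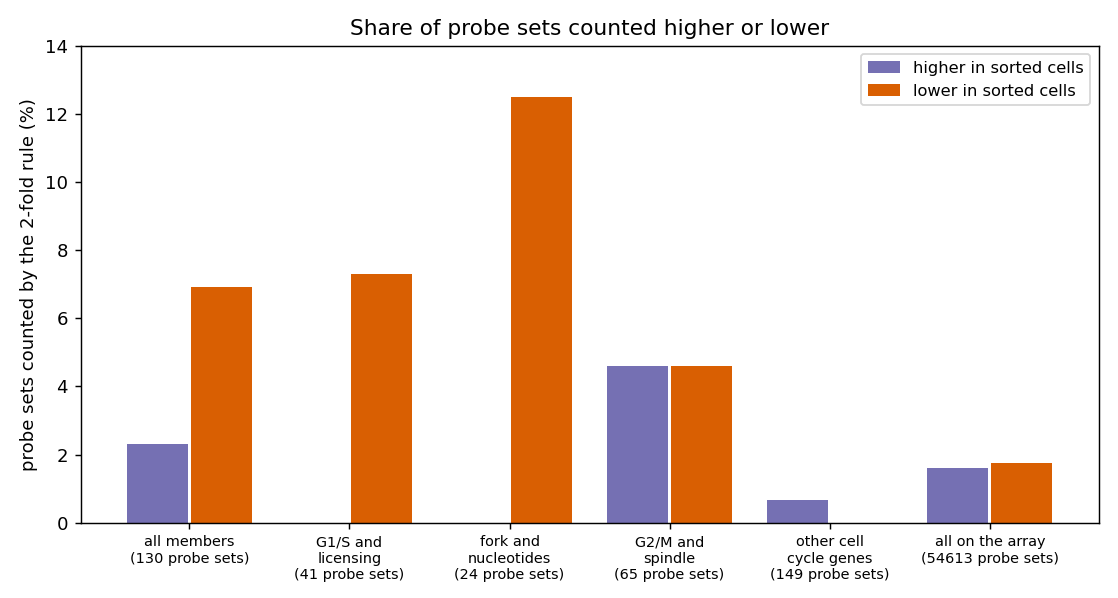
Probe sets counted by the 2-fold rule as higher or lower in sorted cells, in percent of the probe sets of each set (vertical axis), for all members, the 3 phases, the other cell cycle genes and all probe sets of the arrays, with 1 array per condition and no error bars. Lower probe sets are 6.92% of the members, 0 of the other cell cycle genes and 1.77% of the arrays.

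By phase, lower probe sets were 7.32% of G1/S and licensing, 12.5% of the fork and nucleotide genes and 4.62% of G2/M and spindle. Each stands for 3 probe sets, and the share over all probe sets was 1.77%. Among those Present in control cells, which alone could be counted lower, they were 3 of 6, 3 of 6 and 3 of 10. Over all probe sets it was 965 of 4875. In RNA of a whole culture, a smaller share of cells in a phase and less transcript per cell cannot be told apart. The hybridisation of rat transcripts, or of human library sequence in sorted cells, to each probe set was not tested. Nor were the share of cells in each phase and the growth state of either culture.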

How the data were processed

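Each sample's total RNA was read on 1 Affymetrix array after biotin labelling. The deposited files hold MAS5 signals, an intensity scaled per array by the authors, with a detection call and a detection p-value per probe set. Affymetrix Expression Console is named in the submitters' processing notes, without a version. The deposited series table gives equal signals to within 0.00050%. No scanner file was used here, so background correction is that of the authors, and the number of arrays limits the precision.

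The 62 control probe sets were left out, and genes were named from the array's annotation. Log2 ratios were computed with Python 3.11.15, numpy 2.4.6 and pandas 2.3.3 and plotted with matplotlib 3.10.9. The lowest Present signal, used for lower limits, was 148 on the control and 159 on the sorted array. Members with a Present probe set are all given, with their other probe sets in values, ranges or counts, and members without one by name. The members, lists and rules were chosen with earlier results of these data known. The computation of the counts was tested on simulated data. That check says nothing about the detection calls of the real arrays. The counts rest on these calls, since 8 of the lower and all 3 higher member probe sets were Absent on the other array.

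Alternatives were quantile normalization, centring, a raised floor, the value table, a 4-fold rule, other detection rules, gene-specific probe sets and other summaries of a gene. A detection p-value under 0.01 and a floor at the lowest Present signal were added after seeing the data. A log2 value was said to move beyond 0.33, the SD of the hybridisation spikes, and a count beyond 1.5 times.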

Additional observations from a re-analysis of the deposited data

How the results depend on the processing

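No paired analysis was possible because each condition has 1 array, and for the same reason no array could be left out. Of the 9 lower and 3 higher member probe sets, 5 lower and 2 higher passed a 4-fold rule, 3.85% and 1.54% against 0.709% and 0.590% of all probe sets. With gene-specific probe sets only, 4 were lower and 1 was higher, with fewer compared. The share over all gene-specific probe sets was not counted, so these counts have no background beside them. Present calls on both arrays left 1 lower and 0 higher, and a detection p-value under 0.01 left 0 of either. With no detection call 34 were lower and 35 higher, 26.2% and 26.9% against 25.2% and 23.1% of all. The larger share of lower probe sets in the members was not seen there. Most of the member probe sets counted that way were Absent on both arrays, so this setting cannot decide on that share. Quantile normalization, centring, both floors, the value table and an Absent call on the other array left both counts within 1.5 times.

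The median log2 ratio of all members, -0.08, was -0.50 over probe sets Present on both arrays. For G1/S and licensing, 0.23 turned to -0.86 over those Present on both and to -0.57 with the brightest probe set of each gene. For G2/M and spindle, -0.15 turned to 0.34 with the brightest probe set of each gene. The cause was not tested. Of 28 detected member probe sets, 0 moved with quantile normalization or centring and 3 with the raised floor, which kept their sign and their 2-fold difference, at -2.17 for CDK6, 2.91 for NEK6 and 1.06 for SMC2.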
